A study of Mus musculus with 18 samples.

Results

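Invariant natural killer T (iNKT) cells of the thymus that lack the Hippo pathway kinase MST1 were compared between developmental stage 2 (S2) and stage 1 (S1). The samples were the 3 arrays titled Mst1KO S2 and the 3 titled Mst1KO S1, 6 of the 18 samples in the series, which also holds stage 3 (S3) and all 3 stages of wild-type (WT) mice. Mst1KO cells came from the thymus of Cd4CreMst1fl/fl mice on the C57BL/6 strain, in which Cre recombinase under the Cd4 promoter deletes Stk4, the gene for MST1, and WT cells came from C57BL/6 mice without that deletion. Cd4-Cre acts in developing thymocytes, so conventional T cells of these mice carry the deletion as well as iNKT cells. All cells were TCRb positive, bound the CD1d tetramer loaded with PBS57 and lacked CD24. S1 cells were CD44 negative and NK1.1 negative, S2 cells CD44 positive and NK1.1 negative, and S3 cells positive for both. Thymocytes first went through a CD8 microbead step, which the labels describe as positive selection, and 1 to 20 ng of RNA was amplified per array. No treatment was given, and no age of the mice is given in the sources used here.

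iNKT cells carry a semi-invariant T cell receptor that recognises lipids held by CD1d. As they mature in the thymus they take on effector programs that resemble those of helper T cells: NKT1 cells use T-bet and interferon-gamma, NKT2 cells use GATA3 and IL-4, and NKT17 cells make IL-17. NKT17 cells are CD44 positive and NK1.1 negative, so the S2 gate holds them beside NKT2 cells and precursors of NKT1 cells. MST1 and its relative MST2 phosphorylate LATS and NDR kinases, which restrain the co-activators YAP and TAZ.

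Of 23521 probe sets with 1 gene symbol, 13702 passed a filter on low values, and the brightest probe set of each gene gave 13034 genes. Values are log2 expression, and differences are S2 minus S1 in log2 units ± SE with n = 3 arrays per stage. A gene is called, and is said to have risen or fallen, where limma gave an adjusted p under 0.05 over all 13034 genes. Each genotype had 3 mice by the series design, but nothing ties arrays to mice, and p-values therefore cover only the variation among these samples, which may be technical. Arrays of a group correlated at 0.976 to 0.986 across probe sets, array medians lay between 4.81 and 4.93, and the number of arrays limits the precision of each value. Stk4 read between 7.40 and 7.67 on the 6 Mst1KO arrays of S1 and S2 and between 7.70 and 8.10 on the 6 WT arrays of these stages. Every Mst1KO array was thus below every WT array at these stages, by a small margin. No source used here gives the deleted part of Stk4 or the part that the probe set reads, so whether it covers the deletion was not tested.

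The genes of the gate were checked first. Cd44, whose protein separates the stages, read 5.97, 5.33 and 5.69 on S1 replicates 1, 2 and 3 and 7.83, 7.71 and 7.68 on S2, a rise of 2.08 ± 0.14 (limma adjusted p = 8.23e-08). Klrb1c, the gene for NK1.1, read 2.92, 2.76 and 3.01 at S1 and 5.44, 4.62 and 4.75 at S2. It rose by 2.04 ± 0.23 although both gates exclude the protein, and reached 8.73 to 8.86 at S3. Its S1 values and those of S2 replicates 2 and 3 lay below every array median, where background limits a value. Zbtb16, which encodes the iNKT master regulator PLZF, read 11.75 to 11.77 at S1 and 11.43 to 11.48 at S2 and was not called (-0.29 ± 0.12, limma adjusted p = 0.162). Over 9 annotated iNKT identity markers the array means were 10.42 to 10.54 at S1 and 10.41 to 10.46 at S2. Of these 9 markers 3 were called, against 6.67% of all genes: the IL-2 receptor chain gene Il2rb rose by 0.46 ± 0.10, and the receptor genes Cd5 and Cd27 fell by 0.42 (SE 0.09) and 0.37 (SE 0.09). Each lost its call without at least 1 of the 6 arrays. Cd8b1, which bears on the bead step, read 8.14, 6.50 and 7.31 at S1 and 6.77, 6.33 and 6.43 at S2 and was not called (-0.80 ± 0.30, limma adjusted p = 0.132).

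From S1 to S2, 870 genes were called, 6.67% of those tested: 492 rose (3.77%) and 378 fell (2.9%). By size, 158 genes rose and 52 fell by at least 2-fold. The median difference over all genes was -0.000262. The 6 arrays of the 2 stages did not overlap for 3356 genes, 25.7% of all tested, and for 861 of the 870 called. These are bulk sorts, in which fewer cells of a type and less RNA per cell cannot be told apart. S2 replicate 1 lay farthest from S1 among the S2 arrays for 59.3% of the genes that rose and 49.5% of those that fell. Without it 530 genes were called, 335 higher and 195 lower, and without any 1 of S1 replicates 1, 2 and 3 and S2 replicate 2 the genes called lower numbered 228 to 242.

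The 15 largest increases were led by cytokine receptors of the IL-17 program. They were picked from called genes whose S1 and S2 arrays do not overlap, so a lack of overlap was a condition of the choice. Il23r, the receptor chain through which IL-23 sustains IL-17 producers, read 5.61, 5.26 and 5.13 on the S1 arrays and 11.24, 10.82 and 10.71 on the S2 arrays. It rose by 5.59 ± 0.56, a 48.0-fold difference (limma adjusted p = 9.18e-06). Il1r1, the signalling receptor for IL-1, read 4.43, 3.67 and 4.79 at S1 and 9.95, 9.39 and 9.39 at S2, a rise of 5.28 ± 0.29 (limma adjusted p = 2.18e-08). For both receptors every S2 array stood far above every S1 array. Serpinb1a, an inhibitor of neutrophil-type proteases, read 4.57, 5.02 and 4.95 at S1 and 9.44, 8.94 and 8.96 at S2 and rose by 4.26 ± 0.26. Mmp25, a membrane-anchored metalloproteinase, read 5.01, 5.08 and 5.06 at S1 and 9.53, 8.31 and 8.97 at S2 and rose by 3.89 ± 0.24. Ccr6, the receptor for CCL20 that marks IL-17 producing T cells, read 3.59, 4.05 and 4.49 at S1 and 8.26, 7.25 and 7.99 at S2 and rose by 3.78 ± 0.26. In these 3 genes too the stages were well apart on all arrays. At S1 Il1r1 and Ccr6 read below every array median (4.81 to 4.93) and Serpinb1a near it, where background limits a value, so no fold is given for them. Laptm4b, a lysosomal membrane protein gene, rose by 3.74 ± 0.21, also from S1 values near or below the array medians.

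The other 9 of these 15 genes rose by 2.74 to 3.60. Tmem176b and Tmem176a, neighbouring genes for membrane proteins, rose by 3.60 ± 0.20 and 3.07 ± 0.27. Blk, a kinase of the Src family, read 6.27, 6.40 and 6.31 at S1 and 10.10, 9.51 and 9.74 at S2 and rose by 3.46 ± 0.30. Pxdc1 rose by 3.46 ± 0.31, Stab2, a scavenger receptor, by 2.99 ± 0.27, the glycosyltransferase B4galnt4 by 2.91 ± 0.35 and the matrix protein gene Chad by 2.78 ± 0.27. Il17re, a chain of the IL-17C receptor, rose by 2.77 ± 0.23, and Cysltr1, a receptor for cysteinyl leukotrienes, by 2.74 ± 0.39. Cysltr1 had the widest S2 spread of the set, with 7.43 on replicate 1 against 5.92 and 6.15 on the others. None of the 15 lost its call when any 1 of the 6 arrays was left out, or when limma tested against a 1.5-fold change.

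**Figure D1:**
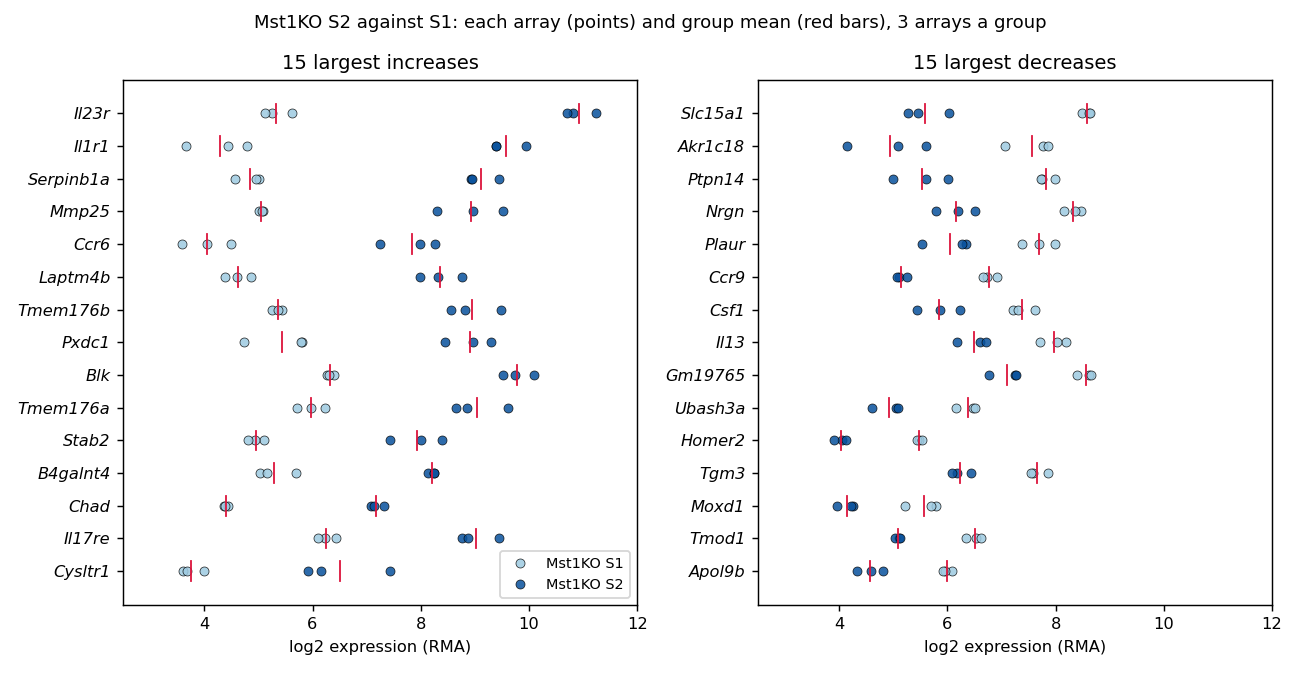
Log2 expression (x axis) of the 15 genes with the largest increase (left) and the 15 with the largest decrease (right) from S1 to S2 in Mst1KO, each point being 1 of 3 arrays per stage and each red bar a group mean. Only called genes whose S1 and S2 arrays do not overlap were picked, so the arrays are apart in every row by choice. Il23r is between 5.13 and 5.61 at S1 and between 10.71 and 11.24 at S2.

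The NKT17 list held 22 tested genes, of which 15 rose, 0 fell and 7 were not called, against 3.77% of all genes called higher. Its median difference was 1.83, beside a median near 0 over all genes. Cd44, which the gate itself separates, is 1 of the 15. The members were chosen with earlier results of these data known, so the count is not an independent test. By S2 array the list's median stood 2.10, 1.36 and 1.82 above the S1 mean for replicates 1, 2 and 3. Besides the receptors above, Sdc1, which encodes the NKT17 surface marker syndecan-1, read 6.26, 6.08 and 5.82 at S1 and 9.19, 8.39 and 8.59 at S2 and rose by 2.67 ± 0.23. Ltb4r1, the receptor for leukotriene B4, rose by 1.93 ± 0.22, the water channel Aqp3 by 1.73 ± 0.22 and the IL-18 receptor chain Il18r1 by 1.01 ± 0.11. The cytokine itself moved less: Il17a read 4.36, 4.79 and 4.11 at S1 and 4.95, 5.37 and 5.45 at S2, close to the array medians. It rose by 0.84 ± 0.20 (limma adjusted p = 0.0193), a call lost without any 1 of S1 replicates 1 and 3 and S2 replicates 2 and 3. The members not called were Il17f (-0.25 ± 0.18), Emb (0.59), Itgb7 (0.17), Ramp1 (0.17), Rora (0.06), Nrp1 (0.04) and the receptor gene Il17ra (-0.05). The count was 14 or 15 whichever of the 6 arrays was left out.

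The sequences upstream of Il23r and Ccr6 are shown because both genes are among the 5 largest increases and both windows hold AGGTCA, a half-site of nuclear receptors, searched on both strands. Each window runs from 250 bases before to 50 bases after a gene start in RefSeq (GRCm38.p6), 5′ to 3′ along the gene, with the half-site or its reverse complement in capitals. The Il23r window is chr6:67491806-67492105, minus strand, and the Ccr6 window chr17:8235793-8236092, plus strand.
Il23r: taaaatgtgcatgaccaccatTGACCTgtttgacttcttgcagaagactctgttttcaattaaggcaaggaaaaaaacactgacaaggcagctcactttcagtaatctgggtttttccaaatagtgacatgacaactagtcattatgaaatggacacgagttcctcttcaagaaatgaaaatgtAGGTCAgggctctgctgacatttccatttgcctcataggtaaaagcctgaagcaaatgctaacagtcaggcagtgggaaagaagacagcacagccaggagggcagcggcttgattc
Ccr6: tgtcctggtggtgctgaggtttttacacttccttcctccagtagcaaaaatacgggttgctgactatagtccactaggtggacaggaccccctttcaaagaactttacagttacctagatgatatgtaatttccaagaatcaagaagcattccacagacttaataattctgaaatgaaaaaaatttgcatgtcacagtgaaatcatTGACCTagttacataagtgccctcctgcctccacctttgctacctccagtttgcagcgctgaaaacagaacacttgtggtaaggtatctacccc
The Il23r window held 2 matches and the Ccr6 window 1, which started at -44 from the gene start. The half-site occurred in 14.8% of 467 windows of genes that rose, in 12.5% of 423 windows of genes that fell and in 12.8% of all 12803 windows, so a match in 1 window is common. The AP-1 motif TGANTCA stood in 7.28% of windows of risen genes against 5.33% of all, and the TEAD motif GGAATG in 12.9% against 12.03%. Among the 16 windows of 11 of the 15 genes with the largest increase, 6 held the TEAD motif, 3 the half-site and 0 the AP-1 motif. These windows are few, some belong to 1 gene, and a match shows no binding.

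The NKT1 list also moved up, by less. Of 23 tested genes 11 rose, 0 fell and 12 were not called, against 3.77% of all genes called higher, with a median difference of 0.81. Il18rap, the second chain of the IL-18 receptor, read 6.39, 5.32 and 6.31 at S1 and 8.57, 8.32 and 8.38 at S2 and rose by 2.41 ± 0.25. The chemokine receptor Cxcr3 read 7.02, 7.08 and 7.16 at S1 and 8.32, 8.88 and 8.98 at S2 and rose by 1.64 ± 0.16. Tbx21, which encodes T-bet, read 7.25, 7.16 and 7.31 at S1 and 7.93, 8.18 and 8.63 at S2, a rise of 1.00 ± 0.15 (limma adjusted p = 0.000476). All 3 genes had no overlap between the stages, as had 861 of the 870 called genes. Tbx21 rose by a further 1.58 from S2 to S3. Ly6c2 rose by 1.62 ± 0.16, the granule gene Nkg7 by 1.58 ± 0.23, the activating receptor Klrk1 by 1.24 ± 0.26 and Ifng, interferon-gamma, by 0.96 ± 0.20. Xcl1, a chemokine for dendritic cells, rose by 1.46 ± 0.34, a call lost without S2 replicate 1 or S1 replicate 3. Stat4 and Il12rb2, which carry the IL-12 signal, were not called (0.81 ± 0.29 and 0.37 ± 0.33, limma adjusted p = 0.115 and 0.589). Among 17 tested NK receptor genes 5 rose and 0 fell, among them Klrb1f (2.74 ± 0.31) and Klrb1b (1.91 ± 0.24). Of 20 annotated NK receptor genes 10 did not exceed the array median on any of the 6 arrays. The S1 values of Klrb1b lay below every array median, where background limits a value. Among 16 cytotoxic granule genes 2 rose, Nkg7 and Gzmb (2.05 ± 0.48, not called without S1 replicate 1), a count that was 6 with a robust variance trend.

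NKT2 genes moved both ways. Of 17 tested, 2 rose, 4 fell and 11 were not called, against 3.77% and 2.9% of all genes called higher and lower, with a median difference of -0.29. Il13, a cytokine of type 2 responses, read 8.19, 8.02 and 7.71 at S1 and 6.17, 6.61 and 6.71 at S2 and fell by 1.48 (SE 0.18, limma adjusted p = 5.2e-05). Il4 read 8.44, 8.75 and 8.78 at S1 and 8.20, 8.15 and 8.43 at S2, a difference of -0.40 ± 0.12 that was not called (limma adjusted p = 0.0540). Gata3, the NKT2 regulator, was not called either (-0.24 ± 0.08). Pdcd1, which encodes the inhibitory receptor PD-1, fell by 0.66 (SE 0.15), and Icos, a costimulatory receptor, rose by 0.50 ± 0.10. Without S2 replicate 1, 2 of these genes were called lower, and Pdcd1 lost its call without that array or S1 replicate 1.

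Lineage transcription factors moved both ways, 11 of 46 rising and 6 falling, against 3.77% and 2.9% of all genes. Maf, a regulator of IL-17 and IL-10 producers, read 7.41, 7.29 and 7.17 at S1 and 8.84, 8.64 and 8.55 at S2 and rose by 1.39 ± 0.14. Ahr, the aryl hydrocarbon receptor, read 5.57, 5.34 and 5.77 at S1 and 7.31, 6.93 and 7.28 at S2 and rose by 1.61 ± 0.24. Bhlhe40 rose by 1.20 ± 0.21, Runx3 by 1.18 ± 0.21, Nfil3 by 1.01 ± 0.23, Prdm1, which encodes Blimp-1, by 0.89 ± 0.14 and Mycn by 0.84 ± 0.16. On the other side, Lef1, a partner of beta-catenin in early T cells, read 11.31, 11.30 and 11.23 at S1 and 10.07, 10.46 and 10.25 at S2 and fell by 1.02 (SE 0.12). Id3, an inhibitor of E proteins, fell by 0.96 (SE 0.13), Sox4 by 0.82 (SE 0.20), Hivep3 by 0.53, Satb1 by 0.40 and Bcl11b by 0.33. The count of 6 was 3 without S2 replicate 1, 2 or 3 or S1 replicate 2, whereas Lef1 and Id3 kept the call without any 1 array. Nfil3, Sox4, Hivep3, Satb1 and Bcl11b each lost it without at least 3 of the 6 arrays in turn. Tcf7 was not analysed here.

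Receptors for soluble signals were among the groups with most rises. Of 29 cytokine receptor genes 10 rose and 3 fell, against 3.77% and 2.9% of all genes. Beyond the IL-23, IL-1, IL-17C and IL-18 receptors, Il2ra, the high-affinity IL-2 receptor chain, rose by 1.59 ± 0.24, Ifngr1, an interferon-gamma receptor chain, by 1.48 ± 0.16 and Il7r by 0.67 ± 0.12. The 3 that fell were Il10ra (by 0.67), Il21r (by 0.61) and Ifngr2 (by 0.57), and 0 or 1 of them were called without any 1 array. Of 21 chemokine and lipid-mediator receptor genes 9 rose and 2 fell. Gpr183, a receptor for oxysterols, rose by 1.06 ± 0.21 and Cxcr6 by 0.69 ± 0.10. Ccr9, the receptor for the thymic chemokine CCL25, read 6.73, 6.65 and 6.91 at S1 and 5.11, 5.07 and 5.25 at S2 and fell by 1.62 (SE 0.16). Ccr7, which guides cells to lymph nodes, fell by 0.88 (SE 0.20).

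Beside the counts that follow, 3.77% of all genes were called higher and 2.9% lower. Of 31 integrin and adhesion genes 8 rose and 1 fell, 5 rising without S1 replicate 2. The 8 include Cd44, which the gate itself separates. Itgae, the CD103 integrin chain that binds epithelial E-cadherin, read 9.11, 8.97 and 8.71 at S1 and 10.72, 10.42 and 10.35 at S2 and rose by 1.57 ± 0.15. Itgb5 rose by 0.97 ± 0.13, and Cd226, an activating adhesion receptor, by 1.25 ± 0.20. The immediate early and stress response list had 14 of 39 genes higher and 2 lower, with a median difference of 0.34, and 9 higher without S2 replicate 1. Fosb read 8.01, 7.71 and 7.71 at S1 and 9.46, 9.28 and 9.29 at S2 and rose by 1.53 ± 0.18. Rgs1, a brake on chemokine receptor signals, rose by 1.82 ± 0.25, Fos by 1.15 ± 0.21 and Junb by 0.81 ± 0.10. Genes of this list also respond to handling of cells, and the part of handling was not tested. Of 37 T cell receptor signalling genes 5 rose and 3 fell, 3 rising without S2 replicate 1 or 2 or S1 replicate 2 or 3. The largest of them was Ubash3a, a phosphatase-family protein that dampens receptor signals, which fell by 1.46 (SE 0.19).

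The 15 largest decreases, also picked from called genes without overlap between the stages, were between 1.41 and 2.99. The 15 largest increases were 2.74 to 5.59. Slc15a1, the peptide transporter PEPT1, read 8.49, 8.62 and 8.63 at S1 and 5.27, 6.03 and 5.46 at S2 and fell by 2.99 (SE 0.25), which is 7.96-fold (limma adjusted p = 1.85e-06). Akr1c18, a steroid dehydrogenase, read 7.07, 7.77 and 7.87 at S1 and 4.14, 5.08 and 5.60 at S2 and fell by 2.63 (SE 0.36). Ptpn14, a tyrosine phosphatase that binds YAP, read 7.99, 7.76 and 7.72 at S1 and 4.99, 5.60 and 6.01 at S2 and fell by 2.29 (SE 0.25). In all 3 genes the lowest S1 array was above the highest S2 array by more than 1 log2 unit. Nrgn, a calmodulin-binding protein, fell by 2.17 (SE 0.18), Plaur, the urokinase receptor, by 1.65 (SE 0.20) and Csf1, the growth factor of macrophages, by 1.53 (SE 0.20). Gm19765, Homer2, Tgm3, Moxd1, the actin-capping gene Tmod1 and Apol9b fell by 1.41 to 1.46. None of the 15 lost its call without any 1 array, and 4 of them (Apol9b, Gm19765, Moxd1 and Tgm3) lost it when limma tested against a 1.5-fold change.

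Genes of DNA replication fell. Of 37 tested 15 fell, 0 rose and 22 were not called, against 2.9% of all genes called lower, with a median of -0.50. Differences were below 0 for all 37. Tyms, which makes the thymidine nucleotide, read 8.66, 9.03 and 8.93 at S1 and 7.77, 7.56 and 8.04 at S2 and fell by 1.08 (SE 0.15, limma adjusted p = 0.000284). Pole, the catalytic subunit of DNA polymerase epsilon, fell by 0.86 (SE 0.15), Cdc6, which loads the replicative helicase, by 0.87 (SE 0.19), E2f2 by 0.73 (SE 0.12), Lig1, which joins replication fragments, by 0.65 (SE 0.13) and the helicase subunit gene Mcm7 by 0.55 (SE 0.12). The S2 medians of the list lay 0.55, 0.54 and 0.44 below the S1 mean on replicates 1, 2 and 3, so each S2 array was lower. The count of 15 rested on single arrays: it was 6 without S2 replicate 1, 7 without S1 replicate 1 and 9 without S1 replicate 3. Tyms, E2f2, Pole and Lig1 kept the call without any 1 array. Of 37 mitosis genes 1 fell, the condensin gene Smc2 (a call lost without S1 replicate 1 or 2 or S2 replicate 1), and 0 rose, although 36 of 37 differences were below 0 and the median was -0.40. Their array means were 8.35 to 8.47 at S1, 7.84 to 8.12 at S2 and 6.21 to 6.61 at S3. Top2a, a topoisomerase of dividing cells, differed by -0.71 ± 0.21 without passing the test (limma adjusted p = 0.0585).

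The windows of Cdc6 and Mcm7 are shown because both genes fell and both hold TTTCCCGC, a site of the E2F factors that drive replication genes, searched on both strands and capitalised here. They are chr11:98907901-98908200, plus strand, for Cdc6 and chr5:138171834-138172133, minus strand, for Mcm7 (RefSeq, GRCm38.p6).
Cdc6: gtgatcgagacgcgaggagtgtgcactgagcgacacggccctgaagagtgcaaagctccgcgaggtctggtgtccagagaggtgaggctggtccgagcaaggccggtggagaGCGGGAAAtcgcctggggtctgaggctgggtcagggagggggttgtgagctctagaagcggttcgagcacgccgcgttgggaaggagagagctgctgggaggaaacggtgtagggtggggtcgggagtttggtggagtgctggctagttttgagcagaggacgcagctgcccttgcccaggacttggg
Mcm7: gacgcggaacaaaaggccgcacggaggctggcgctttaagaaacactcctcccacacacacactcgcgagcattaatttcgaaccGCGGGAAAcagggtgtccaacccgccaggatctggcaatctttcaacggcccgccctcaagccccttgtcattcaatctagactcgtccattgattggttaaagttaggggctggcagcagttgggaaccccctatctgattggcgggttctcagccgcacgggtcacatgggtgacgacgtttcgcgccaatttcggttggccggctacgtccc
The match started at -138 from the gene start in Cdc6 and at -165 in Mcm7. The site occurred in 4.49% of windows of genes that fell, 1.28% of those of genes that rose and 1.92% of all windows. Among the called replication genes 4 of 19 windows held it.

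Other metabolic and growth lists had few calls, where 3.77% of all genes were called higher and 2.9% lower. Of 46 genes of the mitochondrial respiratory chain 0 were called, with a median of -0.00158. Of 40 MYC and ribosome biogenesis genes 1 rose (Odc1, the first enzyme of polyamine synthesis, 0.53 ± 0.13). Differences were below 0 for 32 of these 40, with a median of -0.15. Of 22 glycolysis genes 1 fell (Ldhb, by 0.55), and of 25 sterol and fatty acid genes 1 fell (Fasn, by 0.29). Of 33 interferon-stimulated genes 2 fell, Oas3 by 0.71 (SE 0.11) and Oas2 by 0.54 (SE 0.13). Odc1, Ldhb, Fasn and Oas2 each lost the call without at least 1 array. Among 27 quiescence and egress genes 6 rose and 2 fell: Klf4, a factor that holds T cells in quiescence, rose by 1.85 ± 0.22 and Klf6 by 0.72 ± 0.14, whereas the survival gene Bcl2 fell by 0.94 (SE 0.20). Without S2 replicate 1 or S1 replicate 2, 3 of these genes were called higher. Of 22 survival and apoptosis genes 3 rose, 1 fell (Bcl2) and 18 were not called, with a median of 0.12. Bcl2a1a, a relative of Bcl2, rose by 1.00 ± 0.11, and Bcl2l11, which encodes the death-promoting protein BIM, by 0.94 ± 0.19. Of 30 Hippo pathway genes 1 rose and 2 fell, beside 3.77% and 2.9% of all genes, and the counts were the same in WT. Lats2, a kinase downstream of MST1, read 6.54, 6.75 and 6.57 at S1 and 7.51, 7.13 and 7.31 at S2 and rose by 0.70 ± 0.12. Stk38, an NDR kinase that MST1 can activate, fell by 0.47 (SE 0.12), a call lost without S1 replicate 1 or 2 or S2 replicate 1, and Ptpn14 fell as given above. Stk4 itself differed by -0.13 ± 0.11 between the stages and was not called.

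**Figure D2:**
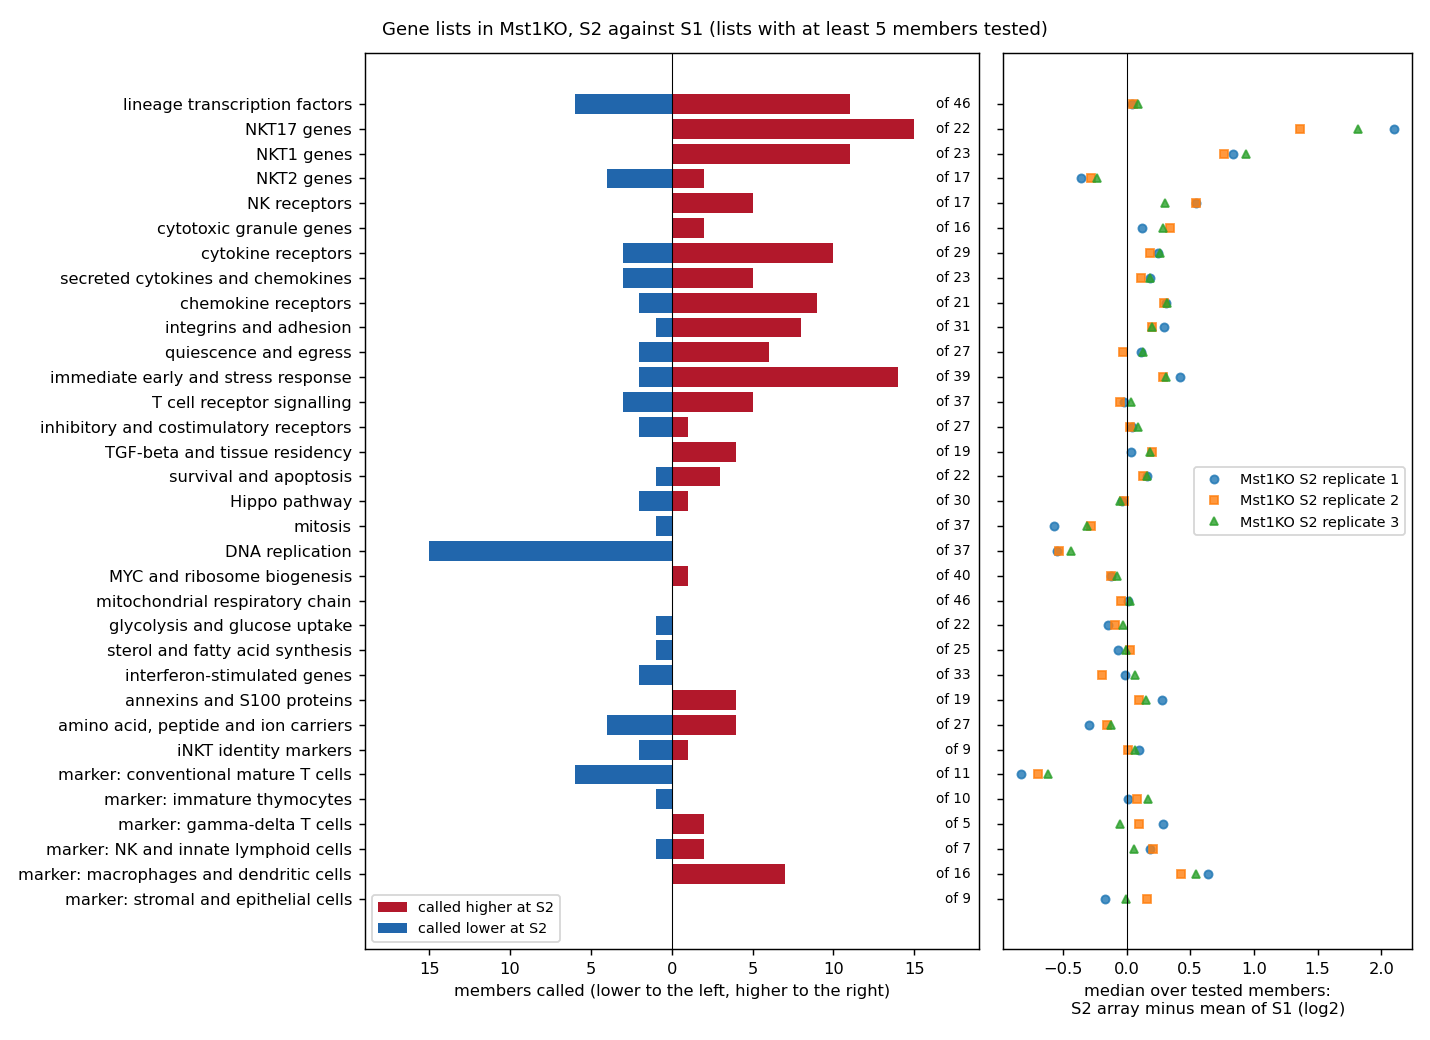
Left, the number of members of each gene list called higher (red, to the right) or lower (blue, to the left) at S2 against S1 in Mst1KO, with the number tested at the right edge. Right, the list's median log2 difference from the S1 mean for each of the 3 S2 arrays. NKT17 genes have 15 of 22 higher and DNA replication 15 of 37 lower, and the 3 arrays are on the same side of 0 for both.

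Markers of other cell types also differed between the stages. Beside the counts that follow, 3.77% of all genes were called higher and 2.9% lower. Of 16 tested macrophage and dendritic cell markers 7 rose, 0 fell and 9 were not called, with 4 called without S2 replicate 1. Adgre1, Cd68 and Fcer1g, 3 of those not called, had differences below 0. Lyz2, the lysozyme of myeloid cells, read 3.37, 4.75 and 3.85 at S1 and 6.20, 6.31 and 6.21 at S2 and rose by 2.25 ± 0.34. Its S1 values lay below every array median, where background limits a value. The complement gene C1qb read 5.52, 5.08 and 4.96 at S1 and 6.24, 5.97 and 6.89 at S2. The mean over the 19 annotated markers was 5.56 to 5.77 on the S1 arrays and 6.07 to 6.28 on the S2 arrays, and 3 of them, Xcr1, Siglech and Flt3, did not exceed the array median on any of the 6 arrays. Of 5 tested gamma-delta T cell markers 2 rose, Blk and 5830411N06Rik, and 3 were not called. The list mean was 6.14 to 6.22 at S1 and 6.80 to 7.26 at S2. The median difference was only 0.10, with 0.29, 0.09 and -0.05 on S2 replicates 1, 2 and 3, so most markers did not share this rise. Blk is also in the NKT17 list, Cd163l1, another marker of these cells, differed by 0.02 ± 0.12, and the gamma and delta receptor constant genes were not analysed here. Of 11 conventional mature T cell markers 6 fell and 0 rose, among them Igfbp4 (-1.32), Lef1, Actn1 (-0.96), Cd4 (-0.71) and Ccr7, and the array means were 8.33 to 8.71 at S1 and 7.67 to 7.90 at S2. Of 7 NK and innate lymphoid markers 2 rose and 1 fell, with array means of 5.01 to 5.07 and then 5.21 to 5.29, while Ncr1, Eomes and Cma1 did not exceed the array median on any of the 6 arrays. For B cells 7 of 9 annotated markers did not exceed the array median on any of the 6 arrays, and of 9 tested stromal and epithelial markers 0 were called. The part of these markers in the differences above was not tested.

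**Figure D3:**
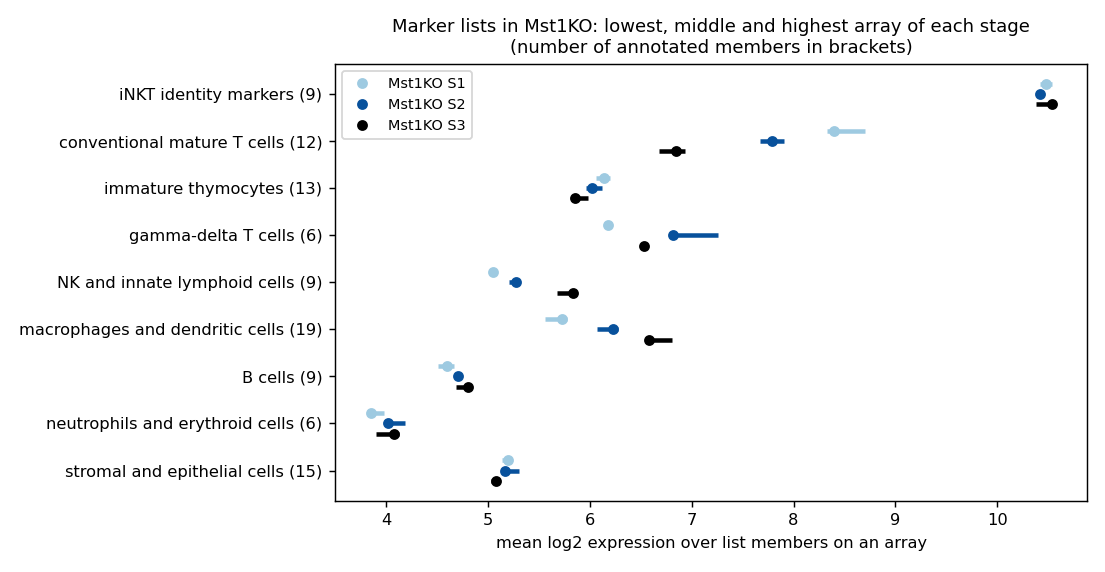
Mean log2 expression over the annotated members of each marker list (x axis) on the lowest, middle (point) and highest array of S1, S2 and S3 in Mst1KO, bars spanning lowest to highest. Conventional T cell markers are lower at S2 (7.67 to 7.90) than at S1 (8.33 to 8.71), macrophage and dendritic cell markers are higher (6.07 to 6.28 against 5.56 to 5.77), and iNKT identity markers are near 10.4 to 10.5 at each stage.

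The same stage step in WT, which shares no array with the Mst1KO comparison (WT S2 against S1), gives the change in cells that keep MST1. In WT 352 genes rose (2.7%) and 149 fell (1.14%). Of the 492 genes that rose in Mst1KO 223 also rose in WT, 45.3% of the Mst1KO genes and 63.4% of the WT genes. Of the 378 that fell 91 also fell in WT, 24.1% and 61.1%, and 0 genes were called in opposite directions. All 15 of the largest increases rose in WT as well, and 10 of the 15 largest decreases fell there, the exceptions being Csf1, Gm19765, Ubash3a, Tgm3 and Apol9b. The NKT17 list had 14 genes higher in WT with a median of 1.38, against 15 and 1.83 in Mst1KO, and the NKT1 list 15 with a median of 1.25, against 11 and 0.81. DNA replication had 6 genes lower in WT with a median of -0.37, against 15 and -0.50. These list values were not tested against each other.

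The difference between the 2 genotypes' changes was tested gene by gene. limma called 2 genes, 0.0153% of those tested, with 882 at an unadjusted p under 0.05. Rnf43, a ubiquitin ligase that removes Wnt receptors from the cell surface, read 6.58, 6.43 and 6.53 at S1 and 7.87, 7.88 and 7.73 at S2 in Mst1KO, a rise of 1.31 ± 0.13. In WT it read 6.74, 6.91 and 7.17 and then 6.79, 6.33 and 6.58, a difference of -0.38 that was not called. The changes differed by 1.69 ± 0.18 (limma adjusted p = 0.00108), and S2 of Mst1KO stood above every other array of the 2 stages. Laptm4b read 4.38, 4.87 and 4.61 at S1 and 8.77, 7.99 and 8.32 at S2 in Mst1KO, against 7.40, 6.996 and 7.27 and then 9.01, 8.49 and 8.26 in WT. Its rises of 3.74 and 1.37 differed by 2.37 ± 0.30 (limma adjusted p = 0.00424), with the genotypes far apart at S1 and overlapping at S2. The Mst1KO S1 values lay near or below the array medians, where background limits a value, so the size of this gap is uncertain. When limma tested against a 1.5-fold difference neither gene was called, and without WT S2 replicate 2 or Mst1KO S2 replicate 2 the count was 6 or 4.

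Further genes had wide gaps that did not pass the test. Klrb1b, an NKR-P1 receptor, read 4.24, 3.94 and 4.36 and then 6.15, 5.62 and 6.49 in Mst1KO, while its WT difference was 0.07, a gap of 1.84 ± 0.34 (limma adjusted p = 0.151). Its Mst1KO S1 values lay below every array median, so the size of this gap is uncertain. Il1r1 had a gap of 2.05 ± 0.40 and Serpinb1a of 1.79 ± 0.37 in the direction of a larger change in Mst1KO (limma adjusted p = 0.191 and 0.197). In the other direction, Stat4 differed by 2.69 in WT against 0.81 in Mst1KO, a gap of -1.88 ± 0.41 (limma adjusted p = 0.224), and Il12rb2 by 2.46 against 0.37, a gap of -2.09 ± 0.47 (limma adjusted p = 0.266). Xcl1 had a gap of -1.77 ± 0.49 (limma adjusted p = 0.397). Stat4 read 6.94, 6.30 and 5.62 at S1 in Mst1KO and 4.87, 4.63 and 5.42 in WT, then 7.10, 7.06 and 7.12 against 8.29, 7.24 and 7.46 at S2. For Il23r, the largest increase, the gap of 0.93 had a 95% interval from -0.76 to 2.62, so these arrays do not show whether its rise differed between the genotypes.

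**Figure D4:**
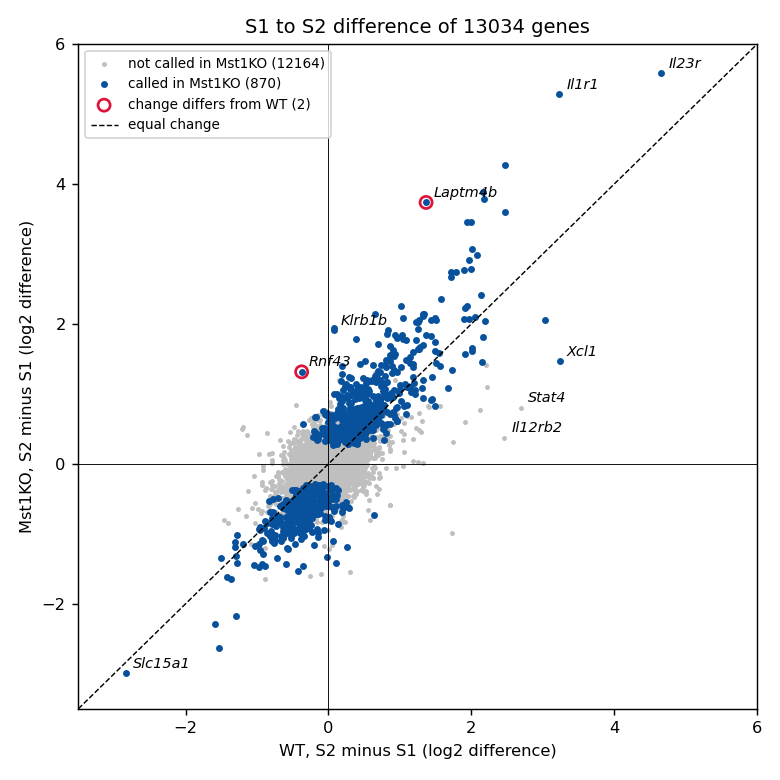
S2 minus S1 log2 difference of each of 13034 genes in WT (x axis) and Mst1KO (y axis), with genes called in Mst1KO in blue, the others in grey and the 2 genes whose change differed between genotypes circled in red. The dashed line marks equal change, and Rnf43 lies at 1.31 in Mst1KO and -0.38 in WT.

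The step that follows, from S2 to S3 in Mst1KO, used the same S2 arrays, so its values are given only beside those above. In it 1044 genes rose (8.01%) and 1196 fell (9.18%). Of the 15 genes with the largest increase from S1 to S2, 12 then fell and 3 (Il23r, Stab2 and B4galnt4) were not called. Il1r1 fell by 1.98 to between 7.36 and 7.72 at S3, Il17re by 1.79, Sdc1 by 1.48 and Ccr6 by 1.17, and Il23r read 9.32 to 9.65, a difference of -1.45 (limma adjusted p = 0.092). At S3 each of the 5 genes still read above its own S1 arrays. Among NKT1 genes, Ifng rose by 3.44 and Xcl1 by 4.70 from S2 to S3, and Il12rb2 and Stat4, not called from S1 to S2, rose by 4.58 and 2.98. Of the 15 largest decreases 8 fell further, 5 were not called and 2, Ubash3a and Apol9b, rose by 1.997 and 1.27. Both read lowest at S2, with Ubash3a at 6.15 to 6.50, then 4.61 to 5.09, then 6.75 to 7.11.

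**Figure D5:**
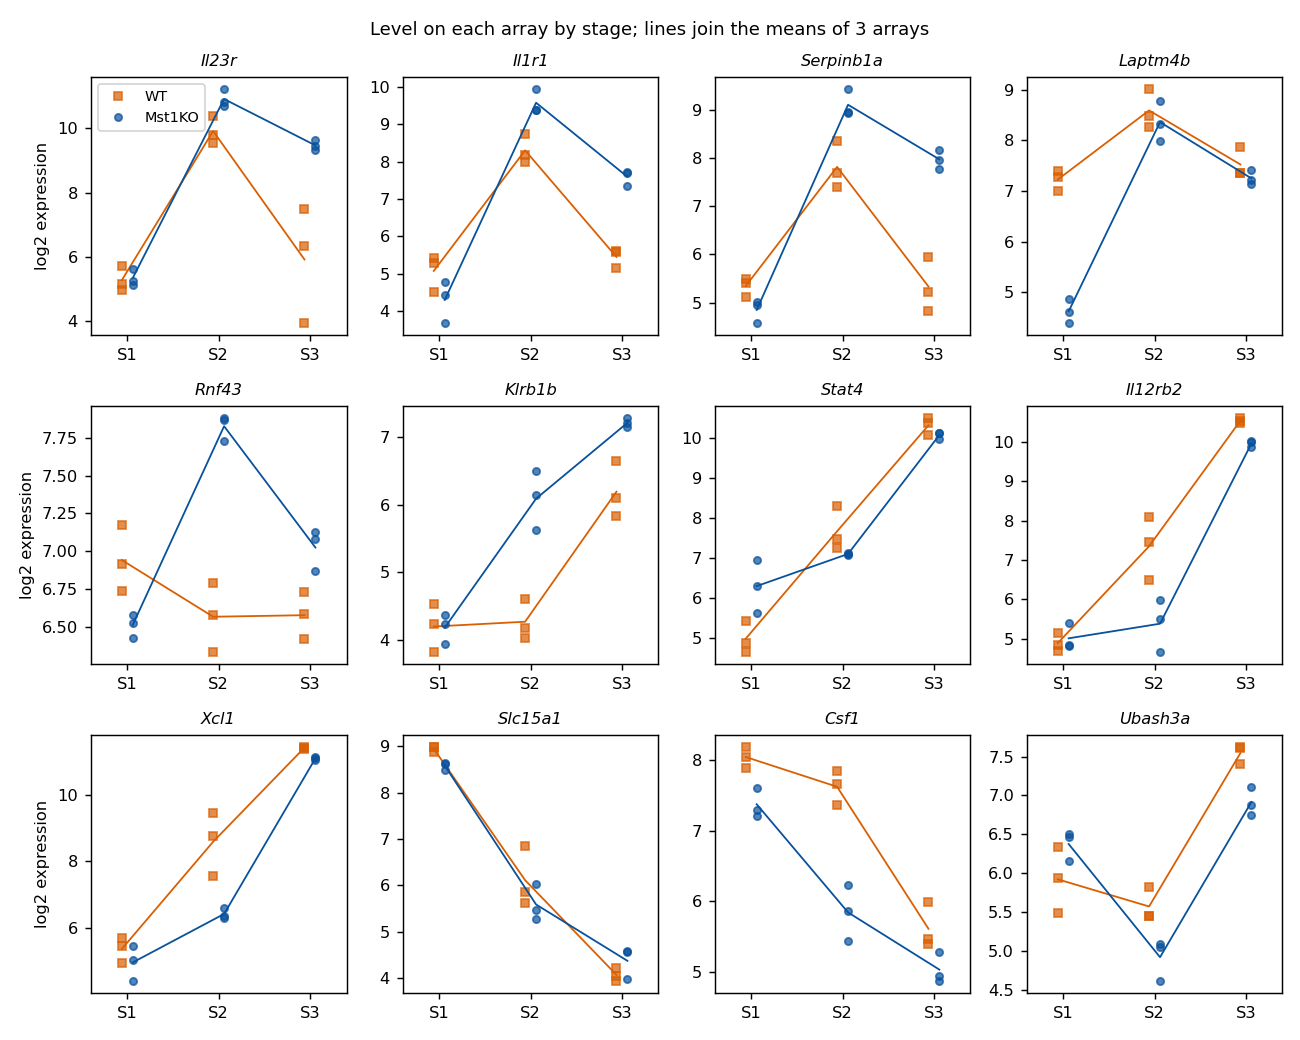
Log2 expression of 12 genes on each array by stage for WT (orange squares) and Mst1KO (blue circles), with lines through the means of 3 arrays. Il1r1 and Serpinb1a peak at S2 in both genotypes and Rnf43 in Mst1KO, while Stat4, Il12rb2 and Xcl1 are highest at S3.

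Of 169 microRNA genes tested 6 rose and 2 fell, against 3.77% and 2.9% of all genes, so they were called no more often than genes in general. The amplified RNA was not a small-RNA preparation, and whether a probe set read the precursor or a host transcript was not tested. Mir1938 and Mir23b are shown, the first because it was called in WT too and the second because it had the largest difference, with bases 2 to 8, the seed, in capitals.
mmu-miR-1938: cGGUGGGAcuuguaguucgguc
mmu-miR-23b-5p: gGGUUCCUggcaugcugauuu
In GRCm38.p6 these mature sequences lie at chr12:40222782-40222803, minus strand (miR-1938), and chr13:63300492-63300512, plus strand (miR-23b-5p). The gene Mir1938 read 9.10, 8.74 and 8.81 at S1 and 9.65, 9.68 and 9.58 at S2, a rise of 0.75 ± 0.15 in Mst1KO beside 0.69 in WT. The gene Mir23b read 5.93, 6.35 and 5.77 at S1 and 4.31, 4.98 and 4.76 at S2 and fell by 1.33 (SE 0.34), a call lost without any 1 of S1 replicates 1 and 2 and S2 replicates 1 and 3. Mir1191 fell by 0.50, and Mir143, Mir194-2, Mir27a, Mir3088 and Mir665 rose by 0.37 to 0.71. Of these 6, only Mir143 kept its call without any 1 of the 6 arrays.

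At the threshold itself, Gm19705, Scly and 4930539J05Rik were the last genes called (limma adjusted p = 0.0495 to 0.0496) and Mettl2, Snord19 and Ankrd26 the first not called (0.05002 to 0.0502). Snord19 differed by -1.60 ± 0.47 and Scly by 0.35 ± 0.10, so a call at this border does not follow the size of a difference.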

How the data were processed

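RNA of sorted thymic iNKT cells was measured on Affymetrix MoGene-2_0 arrays. The authors deposited 1 log2 value for each probe set and array. The submitters' processing notes name RMA and Affymetrix Expression Console 1.1. RMA corrects background, normalizes between arrays and combines probes, which compresses differences of dim genes. Symbols came from GEO's platform annotation. Probe sets with 1 symbol that exceeded their array's median on at least 3 of 18 arrays were kept. limma 3.58.1 (R 4.3.3) fitted a mean per group over all 18 arrays, with Benjamini-Hochberg adjustment. Whether the calls of this fit would recur on further Mst1KO arrays was not tested. Of 38 called genes with another probe set above the filter, 5 (Ero1a, Gm10584, Gpr171, Sidt1 and Tes) had 1 of opposite sign. Members and lists were chosen with earlier results of these data known. Named genes are Stk4, the gate genes, the 15 largest called increases and decreases without overlap, list members (lowest p first), called microRNA genes and genes differing from WT; the genes with wide gaps that did not pass the test were chosen after their values were seen. Of the list entries, 883 matched by symbol and 7 by gene ID. Promoter windows covered 10213 genes.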

Additional observations from a re-analysis of the deposited data

Results flagged for a closer look

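The S1 to S2 change of Rnf43 differed between Mst1KO and WT by a log2 difference of 1.69 under limma's test of that difference. Rnf43 rose by 1.31 in Mst1KO, and its WT difference of -0.38 was not called. The change of Laptm4b differed by 2.37 under the same test, with rises of 3.74 in Mst1KO and 1.37 in WT. Its Mst1KO S1 values lay near or below the array medians, where background limits a value.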

How the results depend on the processing

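The count of 870 genes called lay between 657 and 1057 under another filter or none, median centring, a second quantile normalization, array weights, a robust variance trend, averaged probe sets and a fit on the 6 arrays alone. Median centring split the calls into 550 higher and 329 lower. Under limma's test against a 1.5-fold change 96 genes were called, 83 higher and 13 lower, with 34 list members in place of 141 and 0 genes for the difference from WT, since that test asks for a larger change. Leaving out 1 of the 6 arrays gave 530 to 704 genes, 335 to 430 higher and 195 to 304 lower, with fewer arrays in the fit, and 97 to 123 list members. Without S2 replicate 1, 493 of the 870 remained called. Leaving out 1 of 12 arrays gave 2 to 6 genes for the difference from WT. The cause of these shifts between arrays was not tested. Equal replicate numbers were not taken to pair the samples: deviations of same-numbered S1 and S2 arrays correlated at 0.0826, 0.0716 and 0.0292 in Mst1KO and at 0.0936, 0.142 and 0.206 in WT, not all over 0.1, although each array correlated best with its own number. With the replicate block 947 genes were called, 790 of them among the 870. Among lists, the filter at the 75th percentile gave 7 NKT2 genes lower and 3 macrophage and dendritic cell markers higher, and the 6 arrays alone gave 5 mitosis genes lower, 9 immediate early and stress genes higher and 3 lineage transcription factors lower. No named gene that was called changed sign under any alternative run. That outcome was nearly fixed: 861 of the 870 called genes had no overlap between stages, so leaving out 1 array could not reverse their sign. Dim genes near the array medians of 4.81 to 4.93 are limited by background signal.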

Other observations

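Probe sets outside the named genes were tested apart with limma. Each kind had its own fit and adjustment, so the threshold differs from that of the 13034 genes. Of those genes 3.77% were called higher and 2.9% lower. Of 8443 tested probe sets with no symbol 21 were called higher and 15 lower at S2 in Mst1KO, with 839 at an unadjusted p under 0.05. Of 1021 with several symbols 33 were called higher and 22 lower.

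Secreted factors moved both ways. Beside the counts that follow, 3.77% of all genes were called higher and 2.9% lower. Of 23 tested cytokine and chemokine genes 5 rose and 3 fell, 3 rising without S1 replicate 3. Tnfsf14, which encodes LIGHT, rose by 1.13 ± 0.22 and Ltb, lymphotoxin beta, by 0.59 ± 0.10, whereas Tnfsf8, the ligand of CD30, fell by 0.88 (SE 0.16). Among 27 carriers 4 rose and 4 fell: Slc15a3, a lysosomal peptide transporter, rose by 1.15 ± 0.25, a call lost without S2 replicate 1, and the ATP-gated channel P2rx7 fell by 1.22 (SE 0.22). Of 19 annexin and S100 genes 4 rose and 0 fell, led by S100a4 (1.00 ± 0.13) and Capg (0.71 ± 0.09).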
